A study of Homo sapiens with 6 samples.

Results

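Glycolysis genes were examined for regulatory peaks at their transcript starts in K562 cells. The 10 genes were HK1, HK2, GPI, ALDOA, TPI1, GAPDH, PGK1, ENO1, PKM and LDHA, taken by name out of 19864 protein-coding genes on chromosomes 1 to 22 and X. A peak counted as a start peak of a gene when it lay within 500 bp of any transcript start that GENCODE release 29 annotates for that gene on build GRCh38. All peaks on chromosome 12 from 6300000 to 7000000, around GAPDH, were added, and 40 protein-coding genes had a start there.

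The peaks came from precision run-on sequencing (PRO-seq), in which engaged RNA polymerases add a biotin-labelled nucleotide to the RNA they are making, and from dREG, a classifier that calls active promoters and enhancers from the run-on reads. Untreated K562 cells, an established human leukaemia line that the labels call lymphoblastoid, gave 6 libraries in 3 groups of 2 biological replicates, at least 3 passages apart. PRO-seq 1M used a published protocol with 3 affinity purifications and 11 PCR cycles. qPRO-seq 1M used a quick protocol with 1 affinity purification and 11 cycles on the same input, and qPRO-seq 250k used the quick protocol on the smaller input named in its label, with 14 cycles. Every adapter carried a 6 nt molecular identifier and reads were 37 nt long.

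Each group had 1 peak list, of 24707 peaks in PRO-seq 1M, 38177 in qPRO-seq 1M and 15562 in qPRO-seq 250k. The lists hold no read counts, so depth was unknown, no spread between replicates could be computed, and no difference between lists was tested. Because each list pools many cells, a site active in few cells and a site weakly active in many cannot be told apart. The score of a peak is the authors' own, and it was used only to rank peaks inside a list. The percentile of a peak is the share of the peaks of its own list that scored no higher. Start peaks were found at 9, 11 and 9 of 11 erythroid marker genes in the 3 lists. Triples of values are given here and hereafter for the published protocol first, then the quick one on 1M and on 250k cells. The lymphoid counts were 2, 2 and 1 of 10 B and T lymphoid markers.

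Glycolysis splits glucose into pyruvate in the cytosol, yielding ATP and NADH, and lactate dehydrogenase then reduces pyruvate to lactate and restores the NAD that the pathway needs. Hexokinase traps glucose as glucose 6-phosphate, phosphoglucose isomerase and phosphofructokinase prepare it for cleavage by aldolase, and the later enzymes from GAPDH to pyruvate kinase harvest the energy. Many of these genes are targets of HIF1A and MYC, which bind variants of the short sequences ACGTG and CACGTG. Mature red blood cells, the end point of the lineage that K562 resembles, have no mitochondria and make their ATP by glycolysis.

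Sequences upstream of 5 genes are shown because the glycolysis genes differed in which of their starts carried peaks, and in how often these windows held ACGTG. They are RefSeq sequences on GRCh38.p14, plus strand, cut to the bases before each RefSeq start that no annotated exon covers. Capitals mark ACGTG or its reverse complement CACGT, and overlapping matches are merged. PGK1 lies at chrX:78103998-78104173, the first and second LDHA starts at chr11:18394313-18394387 and chr11:18396101-18396265, ALDOA at chr16:30065510-30065672, HK2 at chr2:74834920-74835169 and GAPDH at chr12:6535142-6535263. The GAPDH stretch ends before the RefSeq start 6535264, which lies downstream of the first GENCODE start of the gene.
PGK1: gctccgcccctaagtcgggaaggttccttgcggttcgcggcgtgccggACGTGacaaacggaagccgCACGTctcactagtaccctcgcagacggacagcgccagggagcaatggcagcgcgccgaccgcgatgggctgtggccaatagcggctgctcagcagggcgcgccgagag
LDHA, first start: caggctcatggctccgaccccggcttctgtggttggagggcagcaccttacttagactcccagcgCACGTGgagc
LDHA, second start: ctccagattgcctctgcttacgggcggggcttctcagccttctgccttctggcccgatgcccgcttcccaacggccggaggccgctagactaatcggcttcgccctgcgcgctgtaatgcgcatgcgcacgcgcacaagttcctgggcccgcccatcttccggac
ALDOA: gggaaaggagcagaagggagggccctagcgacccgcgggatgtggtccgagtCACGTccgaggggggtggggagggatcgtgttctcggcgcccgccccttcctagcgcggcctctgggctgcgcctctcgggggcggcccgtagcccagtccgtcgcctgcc
HK2: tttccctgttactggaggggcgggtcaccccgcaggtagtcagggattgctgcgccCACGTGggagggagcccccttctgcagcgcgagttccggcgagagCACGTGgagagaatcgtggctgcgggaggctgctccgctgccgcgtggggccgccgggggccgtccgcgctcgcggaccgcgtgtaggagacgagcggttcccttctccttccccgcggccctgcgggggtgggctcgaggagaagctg
GAPDH: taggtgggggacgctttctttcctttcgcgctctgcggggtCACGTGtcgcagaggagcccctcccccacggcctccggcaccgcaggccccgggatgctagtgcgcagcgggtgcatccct
Counted over both strands, matches numbered 2 in PGK1, 2 at the first LDHA start and 0 at the second. They numbered 1 in ALDOA, 4 in HK2 and 2 in GAPDH. The stretches differ in length, from 75 bases at the first LDHA start to 250 in HK2, so these counts cannot be ranked. The full windows they were cut from run from 250 bases before to 50 after each RefSeq start. Those windows held 3, 5, 0, 1, 4 and 2 matches in the same order. CACGTG reads the same on both strands and counts as 2. A match is a run of letters and no sign of binding.

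Starts of HK1 are shown next for their CpG content, with each CG in capitals. Both are on the plus strand of chromosome 10, at chr10:69315519-69315768 and chr10:69317931-69318180. The second ends before the RefSeq start 69318181, which is not the GENCODE start 69318844 treated below.
HK1, upstream start: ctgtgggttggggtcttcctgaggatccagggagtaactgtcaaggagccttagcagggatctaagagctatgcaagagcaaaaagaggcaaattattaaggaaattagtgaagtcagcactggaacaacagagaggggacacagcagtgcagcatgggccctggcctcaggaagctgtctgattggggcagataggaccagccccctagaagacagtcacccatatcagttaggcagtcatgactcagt
HK1, next start: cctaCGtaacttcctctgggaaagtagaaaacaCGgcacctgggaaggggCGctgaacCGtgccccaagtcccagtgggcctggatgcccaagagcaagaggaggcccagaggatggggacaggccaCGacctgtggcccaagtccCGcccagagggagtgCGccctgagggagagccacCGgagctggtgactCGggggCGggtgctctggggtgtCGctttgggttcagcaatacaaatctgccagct
The upstream stretch held 0 CG dinucleotides in 250 bases and the next one held 11 in the same length.

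Start peaks were present at 8 of the 10 glycolysis genes in PRO-seq 1M, 9 in qPRO-seq 1M and 8 in qPRO-seq 250k. Of all protein-coding genes, 52.9%, 54.5% and 44.0% had one. PGK1, ENO1, PKM, LDHA, ALDOA, TPI1, HK1 and HK2 had a start peak in all 3 lists, as did 43.1% of protein-coding genes. GPI had one in qPRO-seq 1M alone. GAPDH had none in any list, like 43.5% of protein-coding genes. GAPDH and its surroundings were selected on its lack of a start peak in these lists, and the rest for their place in the pathway with the peak calls known, so the counts are descriptions and were not tested. Restricted to the start of the principal transcript (the APPRIS choice), 8, 8 and 7 of the 10 had a peak, beside 49.2%, 50.3% and 40.7% of 19862 protein-coding genes.

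**Figure D1:**
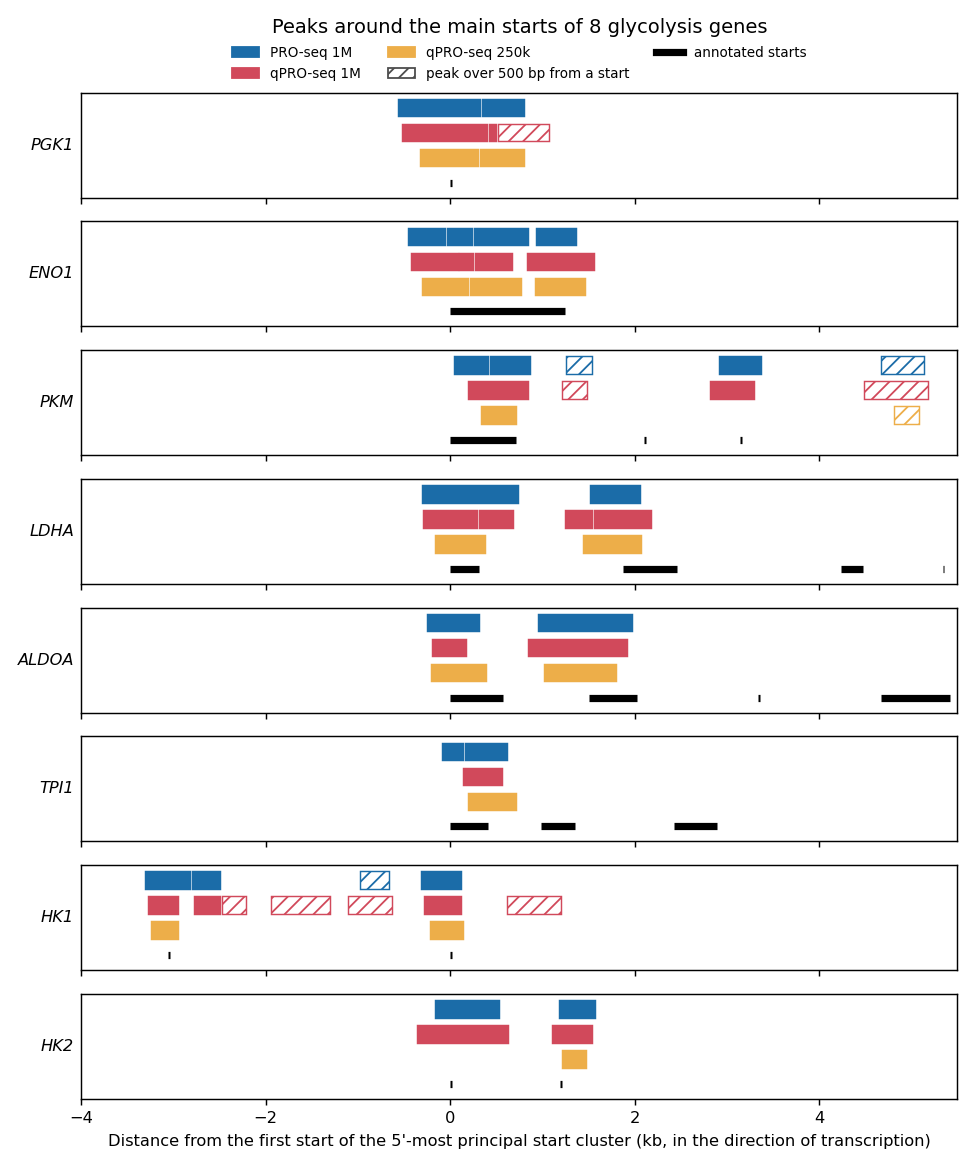
Start peaks (filled bars) and peaks over 500 bp from a start (hatched) of the 3 lists at 8 genes, by distance in kb from the first start of the most upstream principal cluster, in the direction of transcription, with annotated starts as black bars. The first 2 start clusters of LDHA and of ALDOA carry peaks in all 3 lists, and HK1 carries peaks at a start 3.06 kb before its principal one.

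The glycolysis genes with a start peak differed widely in score rank. The best start peak of each gene had a median percentile of 85.8 in PRO-seq 1M (from 37.1 to 98.7), 79.1 in qPRO-seq 1M (from 38.9 to 98.0) and 69.6 in qPRO-seq 250k (from 7.76 to 94.8). The genes were also ranked among all protein-coding genes with a start peak. On that scale the medians were percentiles 67.9, 46.9 and 52.2, and 5 of 8, 4 of 9 and 4 of 8 genes stood above the median gene. ALDOA, PGK1, LDHA and ENO1 held the 4 highest places in every list, and HK2, PKM, TPI1 and HK1 stood below them. No error can be given for these places, so neighbours in the order cannot be separated.

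**Figure D2:**
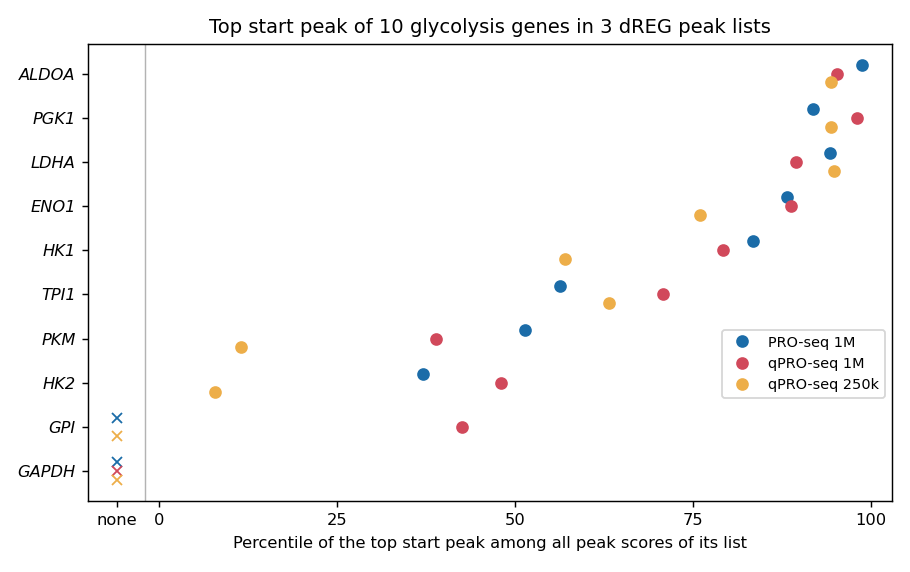
Percentile of the best start peak of each gene among all peak scores of its own list (x axis), with 1 point per list and crosses at none for a gene without a start peak. ALDOA, PGK1, LDHA and ENO1 stand highest in every list, and GAPDH has a cross in all 3.

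The first step is catalysed by the hexokinases, and HK1 (chr10:69269984-69401884, plus strand) encodes the form found in most tissues and in red cells. Its best peaks were at the start 69315785, at percentile 83.4 in PRO-seq 1M, 79.1 in qPRO-seq 1M and 57.0 in qPRO-seq 250k. The principal start 69318844, which is 3.06 kb downstream, had peaks at percentiles 64.2, 72.1 and 52.3. The upstream start therefore ranked above the principal one in each of the 3 lists. HK1 is known to have an erythroid promoter just upstream of its general one. The starts farther upstream, from 69269984 to 69282555, and those at 69338020 and 69392279 had no peak in any list.

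The RefSeq windows that cover the HK1 starts 69315785 and 69318844 also differed in sequence. The second HK1 stretch printed above, before the RefSeq start 69318181, belongs to neither. The RefSeq window of 300 bases at 69315769, printed in part above, was 52.3% G or C and held 0 CpG, whereas the window at 69319064 held 37 CpG and was 74.3% G or C. The former, 69315519-69315818, lies mostly upstream of the start 69315785. The latter, 69318814-69319113, lies mostly downstream of the start 69318844, so unlike stretches are set side by side. Of 10182 RefSeq windows with a peak in all 3 lists, 6 lacked CpG, or 0.0589%, and of 21133 windows without a peak in any list 6.38% did. AGATAA, a form of the motif read by GATA factors, occurred once in the 69315769 window, in the bases after the start. The HK1 window at 69334614, which had no peak in any list, held it 2 times. It occurred in 10.3% of all 34961 windows and in 4.21% of those with a peak in all 3 lists.

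HK2 (chr2:74833981-74893359, plus strand) encodes the inducible hexokinase that many tumours express. Its peak at the start 74833981 was at percentile 37.1 in PRO-seq 1M and 48.0 in qPRO-seq 1M, with none in qPRO-seq 250k. Its start at 74835170 had peaks at 33.4, 38.5 and 7.76. Among the 8 genes with a start peak in every list, PKM ranked lowest in qPRO-seq 1M, and HK2 ranked lowest in both other lists. The sequence printed above for this gene ends just before 74835170.

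GPI (chr19:34359480-34402413, plus strand) encodes the isomerase that converts glucose 6-phosphate to fructose 6-phosphate. Its only start peak, at 34359321-34359760 in qPRO-seq 1M (percentile 42.5), lay at the most upstream starts, where the antisense transcript AC010504.1 also starts. The cluster of 11 starts from 34364740 to 34365562, which holds the principal start, had no peak in any list. The intervals without peaks that held the principal start spanned 231.6 kb, 44.4 kb and 269.1 kb. In their own lists, 10.7%, 28.2% and 14.8% of intervals between neighbouring peaks were at least as long. The RefSeq window at 34364992 was 56.7% G or C and held 13 CpG, fewer than the GAPDH window.

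ALDOA (chr16:30064164-30070457, plus strand) encodes the aldolase of muscle and red cells, which splits fructose 1,6-bisphosphate into 2 triose phosphates. It had 2 start peaks in every list. The higher one, at percentiles 98.7, 95.2 and 94.4, covered starts of the second of its 4 start clusters, from 30065673 to 30066187. It also lay within 500 bp of the last start of the first cluster, from 30064164 to 30064739, so it counts for both. The lower one, at 55.5, 47.4 and 26.7, covered starts of the first cluster. The other 2 clusters, farther downstream, had no peak in any list. The antisense gene AC093512.1 has starts within 500 bp of both peaks. The RefSeq window at 30065760 was 70.7% G or C with 35 CpG, and the 2 windows at the first cluster were 56.0% and 55.7% G or C with 10 and 6 CpG.

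TPI1 (chr12:6867119-6870948, plus strand) encodes the isomerase that interconverts the 2 triose phosphates. Its best peaks were at 6867281-6867740 in PRO-seq 1M (percentile 56.3), 6867261-6867680 in qPRO-seq 1M (70.7) and 6867311-6867830 in qPRO-seq 250k (63.2). The 3 peaks overlapped. Among genes with a start peak they stood at percentiles 23.9, 33.5 and 44.0, below the median gene in every list. PRO-seq 1M had a second TPI1 peak, at 6867031 to 6867260, at percentile 4.66.

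GAPDH (chr12:6533927-6538374, plus strand) encodes the dehydrogenase that makes the first NADH of the pathway and is widely used as a reference gene. No peak of any list lay within 500 bp of its 10 annotated starts, inside the gene or within 10 kb of it. The nearest peak to any of its starts was 31.4 kb away in PRO-seq 1M and 31.6 kb in both qPRO-seq lists. Of protein-coding genes without a start peak, 62.3%, 53.2% and 66.4% were at least as far from one. This describes the lists analysed here. Run-on reads over GAPDH were not analysed here.

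PGK1 (chrX:77910739-78129296, plus strand) encodes the kinase that makes the first ATP of the lower pathway. Its best peak was at 78103611-78104500 in PRO-seq 1M (percentile 91.9), at 78103651-78104570 in qPRO-seq 1M (98.0) and at 78103841-78104480 in qPRO-seq 250k (94.4). The 3 peaks overlapped, and the stretch printed above lies within all of them. A peak at 77910421-77911060 in qPRO-seq 1M, at percentile 41.7, was counted through an upstream PGK1 start that lies at the start of ATP7A, a copper transporter gene.

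ENO1 (chr1:8861000-8879250, minus strand) encodes enolase, which forms phosphoenolpyruvate. It had 4, 4 and 3 start peaks, spread over a cluster of 14 starts from 8878007 to 8879250. The best were at 8878411-8878990 in PRO-seq 1M (88.2), 8877691-8878420 in qPRO-seq 1M (88.7) and 8878481-8879040 in qPRO-seq 250k (75.9). The best peak of qPRO-seq 1M lay farther downstream in the gene than those of the other lists. The antisense gene ENO1-AS1 has starts within 500 bp of every ENO1 start peak except 8877881-8878320 in PRO-seq 1M and 8877791-8878330 in qPRO-seq 250k, and peaks near starts of both genes cannot be assigned to either alone.

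PKM (chr15:72199029-72231822, minus strand) encodes the muscle-type pyruvate kinase, which makes pyruvate and the last ATP. Its best start peaks were at percentiles 51.3, 38.9 and 11.5, all at its main start cluster from 72231113 to 72231822. A further start at 72228676 had peaks at 19.2 in PRO-seq 1M and 38.0 in qPRO-seq 1M. The highest peak of the gene in both 1M lists was elsewhere. It lay inside the gene, overlapped no annotated exon and was over 500 bp from any PKM start, at 72226681-72227150 in PRO-seq 1M (percentile 78.9), 72226641-72227340 in qPRO-seq 1M (98.3) and 72226741-72227010 in qPRO-seq 250k (4.95). In qPRO-seq 250k it ranked below the start peak.

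LDHA (chr11:18394388-18408425, plus strand) encodes the subunit of lactate dehydrogenase that predominates in muscle and many tumours. The first 2 of its 5 start clusters had peaks in all 3 lists, and the other 3 had none. The best peaks at the first, from 18394388 to 18394704, were at percentiles 93.2, 83.3 and 90.9. The best at the second, from 18396266 to 18396843, were at 94.3, 89.5 and 94.8. Of the stretches printed above, the one at the first start held ACGTG and the one at the second did not.

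Annotated starts of the 10 genes, joined while neighbours lay within 500 bp, formed 51 clusters. Peaks were present at 14, 16 and 12 of them, at 12 in all 3 lists, and 35 had none. Of 13 clusters with a principal start, 10, 10 and 9 had a peak, and of the 38 others 4, 6 and 3 did. The second TPI1 cluster, from 6868100 to 6868469, is among these others only through the peak that covers the first TPI1 cluster. Clusters were not formed for all protein-coding genes, so these cluster counts describe the 10 glycolysis genes alone. The genes had 20, 22 and 14 start peaks in all. The other lists overlapped most of them. Of the 20 in PRO-seq 1M, 19 were overlapped in qPRO-seq 1M (beside 92.3% of start peaks of all protein-coding genes) and 16 in qPRO-seq 250k (80.0%, beside 68.9%). Of the 22 in qPRO-seq 1M, 20 (90.9%, beside 83.1%) and 17 (77.3%, beside 62.9%) were overlapped in the other lists. All 14 in qPRO-seq 250k were overlapped in both 1M lists, beside 95.8% and 98.1%.

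The best peaks of the 8 genes with a start peak in every list were also close in position. Their centres were a median of 65 bp apart between the 1M lists, 75 bp between PRO-seq 1M and qPRO-seq 250k and 95 bp between the qPRO-seq lists. The largest distances were 600 bp, 1260 bp and 1180 bp. The first was that of ENO1, and the others were those of HK2, whose best peak was at another start in qPRO-seq 250k. Peaks lay near the limit of 500 bp on both sides. The farthest peak inside it was 417 bp from a start (PGK1, qPRO-seq 1M) and the nearest outside was at 503 bp (PKM, qPRO-seq 1M, percentile 9.96). Others just outside were at 517 bp (PGK1, qPRO-seq 1M, percentile 50.8) and 543 bp (PKM, PRO-seq 1M, percentile 36.7).

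The RefSeq windows of the 10 genes, which run from 250 bases before to 50 after each of 21 RefSeq starts, were rich in G and C. Their median was 68.0% G or C, beside 58.7% of all 34961 windows and 66.0% of the 10182 with a peak in all 3 lists. The observed over expected CpG ratio had a median of 0.825, beside 0.580 and 0.870. Genes with several RefSeq starts count several times, and some windows of ALDOA and of HK1 overlap, so the 21 are not independent. ACGTG was found on either strand in 10 of the 21 windows, of 7 genes (ALDOA, GAPDH, GPI, HK2, LDHA, PGK1 and TPI1). It was found in 21.4% of all windows and 28.1% of those with a peak in all 3. CACGTG, which contains ACGTG, was found in 4 windows of ALDOA, GAPDH, HK2 and LDHA, beside 7.27% and 10.6%. GGGCGG, the motif of SP1, was found in 13 windows of every gene but GPI, beside 45.0% and 74.5%. CCAAT was in 6 windows of 5 genes (beside 34.6% and 36.9%), GGAAGT in 4 of 3 genes (22.8% and 29.1%) and TGACGTCA in 1, of LDHA (1.85% and 3.81%). TATAAA was in 0 of the 21, beside 11.5% and 4.37%. GAPDH and GPI, which lacked a peak at these windows in all lists, differed in composition. The GAPDH window was 70.7% G or C with 28 CpG, and that of GPI was 56.7% with 13.

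The other genes of the pathway and its neighbours were taken from a list of 50 genes. Start peaks were present at 30, 29 and 25 of them in the 3 lists (the share of all protein-coding genes was 52.9%, 54.5% and 44.0%), at 25 in all 3, and 20 had none. In 5, 4 and 6 of those genes the best peak also lay at the start of another protein-coding gene. Of the genes given with values here, these were LDHB (beside AC010197.2) and PFKFB2 (beside YOD1) in all 3 lists, and PFKM (beside SENP1) in PRO-seq 1M. The 3 phosphofructokinase genes, which catalyse the committed step, had peaks in every list: PFKL at percentiles 85.0, 90.8 and 82.9, PFKM at 76.6, 87.5 and 45.6, and PFKP at 67.9, 51.8 and 62.8. Of 11 further genes for enzymes of the lower pathway, 4 had peaks in every list. ALDOC, BPGM, ENO3 and PGAM1 were those, and BPGM, which makes the haemoglobin regulator 2,3-bisphosphoglycerate, was at percentiles 95.7, 95.9 and 95.3. The other 7 had none, ENO2, ENO4, GAPDHS and the red-cell pyruvate kinase gene PKLR among them.

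Peaks were also present at regulators and transporters around the pathway. Of 6 transporter genes, 5, 4 and 4 had a peak, among them SLC2A1, the main glucose carrier of red cells (94.7, 95.4 and 94.5), and SLC16A1, a lactate carrier (98.0, 94.6 and 98.6). The others with a peak in every list were SLC16A3 (52.5, 59.7 and 31.1) and SLC2A3 (58.0, 83.1 and 4.81). Of the 6 genes that set fructose 2,6-bisphosphate or use ADP in the first step, ADPGK, PFKFB2, PFKFB3 and PFKFB4 had peaks in every list, PFKFB2 at 94.3, 96.6 and 92.6 and PFKFB3 at 90.5, 84.0 and 13.1. PFKFB1 and TIGAR had none. Of 5 lactate dehydrogenase genes beside LDHA, only LDHB had peaks (84.6, 89.3 and 97.9). Of 8 genes for pyruvate entry into mitochondria, 7, 7 and 4 had a peak. MPC1, MPC2, PDHA1 and PDK1 had one in every list, and PDK1, a kinase that restrains pyruvate dehydrogenase, was at 96.5, 77.2 and 91.3. Of 7 gluconeogenic genes, G6PC3, PC, PCK1 and PCK2 had one in every list, PCK1 at 48.0, 96.1 and 54.3. HIF1A, which encodes the oxygen-regulated activator of glycolysis genes, was at 91.2, 70.6 and 47.4.

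**Figure D3:**
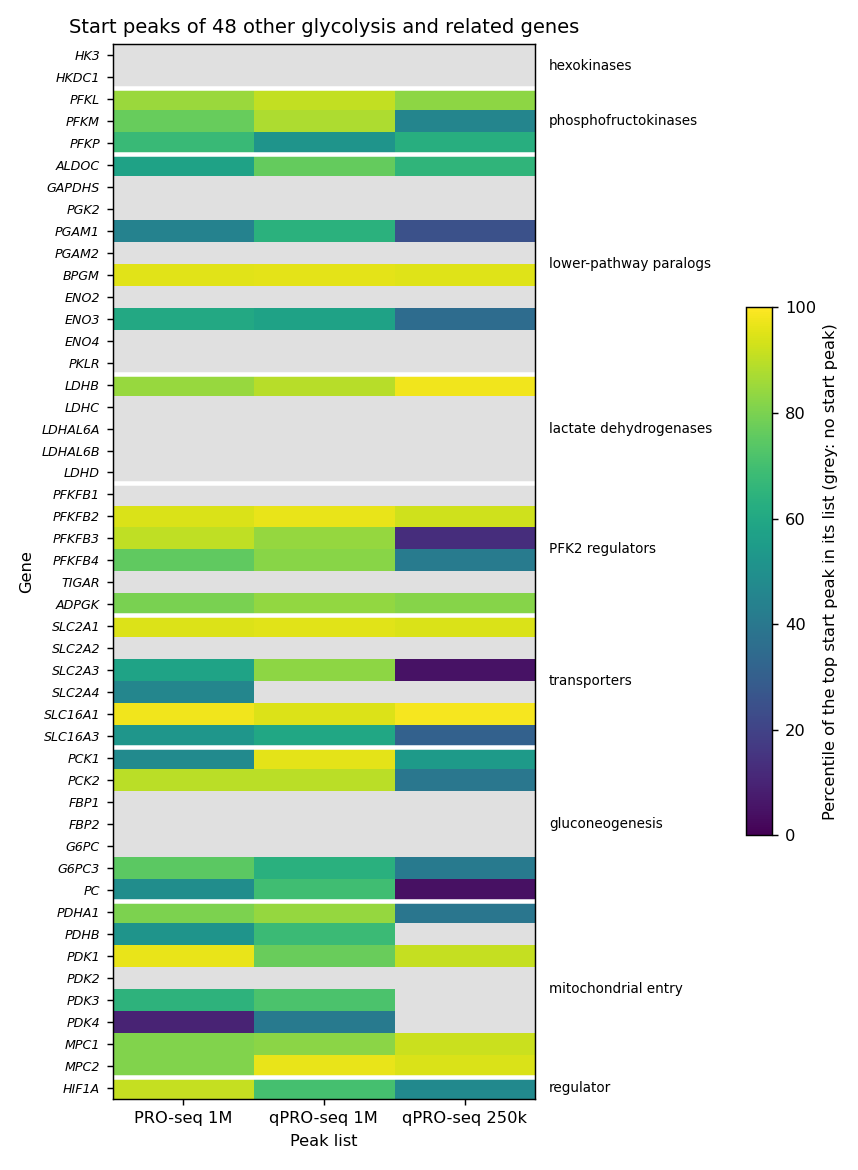
Percentile of the best start peak within its list (colour, 0 to 100) for 48 of the 50 other genes of glycolysis and its neighbours in the 3 lists, with grey for no start peak. Peaks are present at 29, 28 and 25 of the genes shown, and 19 are grey in all 3 lists.

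The region around GAPDH held peaks on both sides of an interval without any. Peaks numbered 53, 71 and 36 from 6300000 to 7000000 on chromosome 12, and 38, 48 and 25 of them lay within 500 bp of a protein-coding start. The 40 protein-coding genes with a start in the region had start peaks at 27 (67.5%), 30 (75.0%) and 19 (47.5%), beside 52.9%, 54.5% and 44.0% of all protein-coding genes. In 19 genes a peak was present in all 3 lists, in 8 in both 1M lists alone, in 3 in qPRO-seq 1M alone and in 10 in none. The 10 were PLEKHG6, CD27, GAPDH, IFFO1, PIANP, LAG3, GNB3, ENO2, LPCAT3 and C1S. Only starts inside the region were counted. CD27 and LAG3 are known as lymphocyte genes and ENO2 as the neuronal enolase. CD4, also a lymphocyte gene, had a start peak in qPRO-seq 1M alone, at percentile 0.424. Whether peaks in the region follow cell type was not tested.

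**Figure D4:**
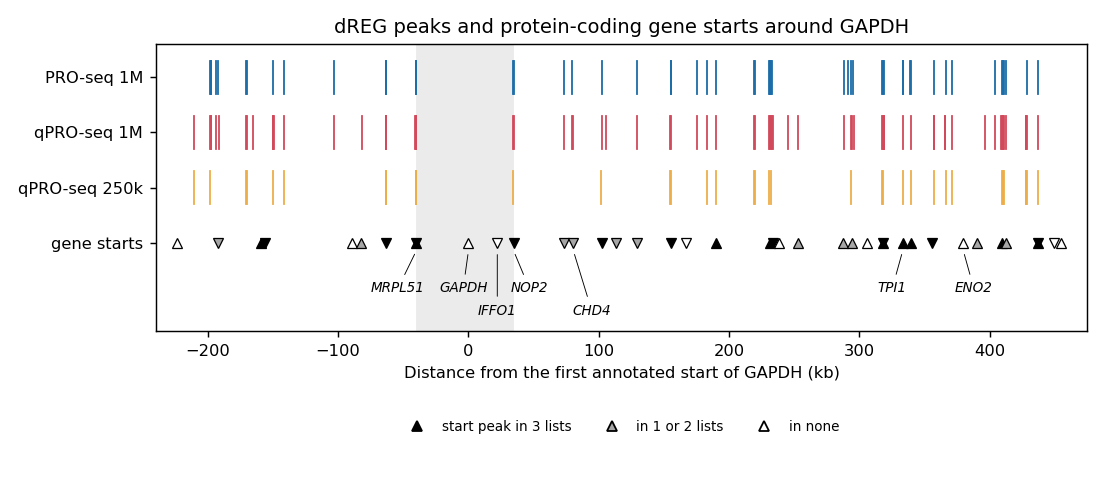
Peaks of the 3 lists (coloured ticks, at the peak centres) and the most upstream start of each protein-coding gene (triangles, up for plus strand and down for minus strand) by distance in kb from the first GAPDH start, with triangles filled by the number of lists with a start peak. The grey band marks the 73.7 kb without peaks in PRO-seq 1M, which holds every annotated start of GAPDH and IFFO1 and inner starts of NCAPD2 and NOP2.

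The genes next to GAPDH had peaks on both sides. MRPL51 and NCAPD2, a mitochondrial ribosome gene and a condensin gene that start close together, shared a start peak at percentiles 88.4, 92.6 and 72.2, and VAMP1, a vesicle fusion gene, was at 95.6, 83.6 and 73.6. Downstream, NOP2, an rRNA methyltransferase gene, was at 83.5, 85.2 and 62.3. The next 2 genes, AC006064.6 and CHD4, a chromatin remodeller gene, shared a best start peak at 45.6 and 51.3 in the 1M lists and had none in qPRO-seq 250k. For CHD4 that peak lay at an inner start. Its peaks nearer its most upstream start, 6614524, were at percentiles 5.29 in PRO-seq 1M and 5.89 in qPRO-seq 1M. IFFO1 lay with GAPDH in the interval and had none. TPI1, which encodes the preceding enzyme of the pathway, lies 333.2 kb from the first GAPDH start and had a peak in every list.

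The interval around GAPDH was nearly the same in the 3 lists, at 6494321-6568050 in PRO-seq 1M (73.7 kb), 6494291-6568170 in qPRO-seq 1M (73.9 kb) and 6494291-6568190 in qPRO-seq 250k (73.9 kb). Intervals at least that long made up 26.4% of 24684 in PRO-seq 1M, 20.0% of 38154 in qPRO-seq 1M and 36.8% of 15539 in qPRO-seq 250k. The median interval was 16240 bp, 7320 bp and 37380 bp. The interval was thus longer than the median interval in each list, and 20.0% or more of the intervals of each were at least as long.

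**Figure D5:**
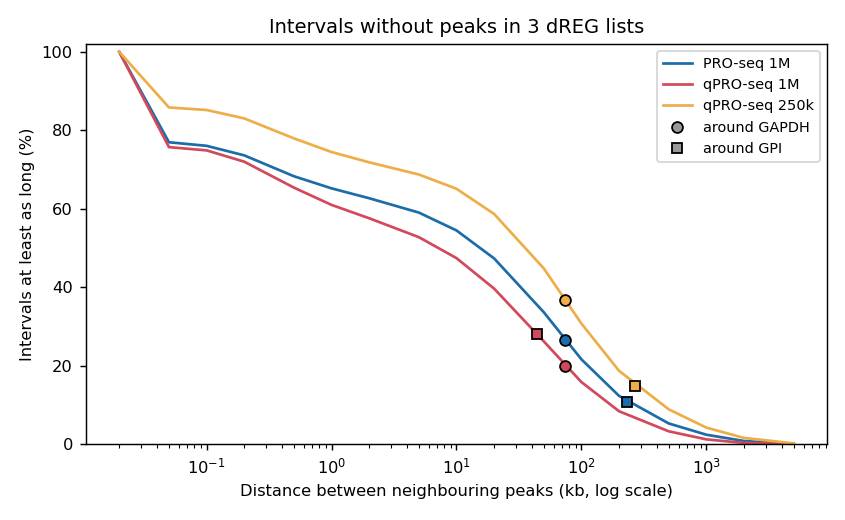
Share of the intervals between neighbouring peaks that are at least as long as the length on the x axis (kb, log scale), with 1 line per list and markers at the intervals around GAPDH (circles) and GPI (squares). The GAPDH circles stand at 26.4%, 20.0% and 36.8%.

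Many glycolysis genes have pseudogene copies, and 83 annotated pseudogenes carry the name of one of the 10 genes. GAPDH accounts for 60 of them. A start peak was present at 1 of the 83 in each list, beside 2.6%, 3.47% and 1.99% of 13822 processed and unprocessed pseudogenes. It was TPI1P2 (chr7:129055223-129057239), whose peak at percentiles 97.3, 97.4 and 95.5 also lay at the start of TNPO3, a nuclear import gene. None of the GAPDH pseudogenes had a start peak in the lists analysed here.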

How the data were processed

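Run-on libraries from K562 cells were analysed as 3 dREG peak lists on build GRCh38, each of which stands for 2 replicate libraries. The deposited score of each peak has no fixed unit, and the deposited p-value carries no statement of adjustment. The other deposited columns, which have no header, give peak positions, and starts are printed counted from 1. The submitters' processing notes name fastp 0.20.0, UMI-tools, Bowtie2 2.3.5.1, deepTools 3.1.3 and hg38, and the version of dREG, its thresholds and the pooling of replicates are not given in the sources used here. Groups came from the sample titles.

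The genes and gene lists were chosen with earlier results of these data known. All 10 glycolysis genes are named. Of the 50 other genes, 2 to 4 per group are named in alphabetical order, and around GAPDH the 3 neighbours on each side. CHD4 and the other genes named in the region, PKLR, and the motif AGATAA were chosen after their values were seen. Peaks were assigned to transcript starts of GENCODE release 29 within 500 bp, and an overlap of 1 bp or more counted. Shares of all genes carry counting error only. RefSeq windows (GRCh38.p14) were found for 10 of 10 genes and searched on both strands for the motifs spelled out in the results. Scripts used Python 3.11.15, pandas 2.3.3, numpy 2.4.6 and matplotlib 3.10.9 and were tested on simulated data. Alternatives were windows of 250 and 1000 bp, basic protein-coding transcripts, a p limit of 0.01, scores at or above the median, lists of equal size, merged peaks and stricter overlap. Chromosome Y and unplaced sequences were left out. Results for some genes of these lists are not reported here by name.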

Additional observations from a re-analysis of the deposited data

How the results depend on the processing

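No paired analysis was possible because each list stands for both replicates of its group and holds no value per replicate, which also prevents leaving out a replicate. The number of glycolysis genes with a start peak stayed within 1.5 times of the reported one in every list and setting. In qPRO-seq 1M it fell from 9 to 6 of 10, at that limit, with lists of equal size and at or above the median score. GAPDH had no start peak in any of 21 combinations of setting and list, the reported setting included. None could give it one. The nearest peak to GAPDH was 31.4 kb or more away, and no setting added peaks or reached past 1000 bp. Of 114 alternative values, 85 stayed within their limits and 29 moved. Lists of equal size left qPRO-seq 250k unchanged by construction, since that list set the size. The share of protein-coding genes with a start peak in PRO-seq 1M was 52.1% within 250 bp, 53.7% within 1000 bp, 50.3% with basic protein-coding transcripts, 50.9% at p of 0.01 or less, 42.9% at or above the median score and 47.0% with lists cut to the top 15562 peaks. In qPRO-seq 1M these shares were 53.5%, 55.5%, 51.4%, 52.5%, 45.9% and 42.4%, and in qPRO-seq 250k the first 5 were 43.1%, 44.9%, 41.7%, 40.1% and 30.8%. Merging peaks within 500 bp left 13 start peaks of the glycolysis genes in PRO-seq 1M and 13 in qPRO-seq 1M, and 43 peaks around GAPDH in qPRO-seq 1M. With lists of equal size, qPRO-seq 1M kept 10 start peaks of the glycolysis genes, 30 peaks and 18 genes with a start peak around GAPDH, and 10 start clusters with a peak (a measure added after seeing the data), and PRO-seq 1M kept 27 peaks around GAPDH. With centres required within 100 bp, 70.0% of the start peaks in PRO-seq 1M were matched in qPRO-seq 1M, and 63.6% and 50.0% of those in qPRO-seq 1M had a match in the published and the 250k list. At or above the median score, 13 of the 50 other genes had a start peak in qPRO-seq 250k. These alternatives keep fewer peaks, fewer or wider starts, or a stricter match by construction. Depth was unknown, so a gene without a peak cannot be called inactive.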

Other observations

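Peaks inside the 10 genes but over 500 bp from their starts were few. HK1 had 1, 4 and 0 of them, PKM 2, 2 and 1, and PGK1 0, 2 and 0 in the 3 lists. The other 7 genes had none in any list. The 4 HK1 peaks in qPRO-seq 1M lay between 69316371 and 69320050, around the 2 starts with peaks, at percentiles 20.2, 35.4, 36.2 and 34.0. The one at 69317731-69318210 covered the RefSeq start 69318181, which is not among the GENCODE starts used.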
